A study of Mus musculus with 3 samples.

Results

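The 10 genes described here encode 8 cathepsins (Ctsb, Ctsc, Ctsd, Ctsh, Ctsk, Ctsl, Ctss and Ctsz) and 2 lysosomal membrane proteins (Lamp1 and Cd68). They were found by exact match of the gene name on the array, which gave 13 probes for the 10 genes among 34813 gene names measured on all arrays. Gene expression was measured in bone marrow-derived macrophages (BMDMs) of C57BL/6J mice, grown for 4 to 6 days in medium with macrophage colony-stimulating factor. The cells were then stimulated for 20 h with CpG DNA, a ligand of Toll-like receptor 9, with IFN-g+IL-10RB, or with all of these agents together, a condition labelled triple. In the study's methods the agent labelled IL-10RB is an antibody against the IL-10 receptor. The IFN-g+IL-10RB array was the reference of the study, which asked which genes accompany the uptake of live cells by macrophages that had received the triple stimulation. Its methods give a lower dose of CpG for the array samples than for the uptake assays.

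Each condition had 1 array, no unstimulated array was analysed here, and the labels do not say how many mice or cultures a sample held. For this reason no test between conditions was possible, no p-value is given, and a difference between arrays cannot be told apart from a difference between cultures. The only measured error is technical. Probes printed in several spots gave an SD of 0.13 for a log2 fold between single spots, so that differences under 0.26 on the log2 scale, which is 2 such SD, were within the noise of the array. Among probes with signals of 10000 or more, where all members but Ctsk lie with their main probe, the SD was 0.072, and by this smaller error the log2 folds of Ctsl in triple over IFN-g+IL-10RB and of Lamp1 in CpG over IFN-g+IL-10RB, which were under 0.26, also exceeded 2 SD. This error was measured within each array, so it leaves out differences of labelling, hybridisation and scaling between arrays. It also leaves out the spread between cultures. In a bulk sample, fewer cells of a type and less RNA per cell cannot be told apart.

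Cathepsins are proteases of lysosomes and endosomes, most of them with a cysteine in the active site, and they degrade endocytosed and phagocytosed proteins at acidic pH. In antigen-presenting cells cathepsins S and L also process the invariant chain and antigens for presentation on MHC class II. LAMP-1 is a heavily glycosylated protein of the lysosomal membrane, CD68 is a related protein abundant in macrophages, and both are common markers of late endosomes and lysosomes.

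Every one of the 13 probes read well above background in the 3 conditions, and none was saturated. Each value below is the processed signal, an intensity in arbitrary units with the background subtracted, and each log2 fold was taken after the arrays had been put on a common scale at their 75th percentile. Signals of different probes are not compared, because each probe binds its target with its own efficiency. Probe positions are those of the array annotation on mm9, and no gene models of that build were used here to place them in exons or UTRs. The first 30 bases of the probe, as the array file lists them, are given for the 6 genes whose signal differed most between arrays, because these are the sequences by which the differences were measured.
Ctsc: cgggtctttatcactcacagagtgatttag
Ctsh: acctagaatcgtctctctttccagctctct
Ctsk: catttcagtcttccactgagatgcacaaat
Ctsl: accaaacccttattgagtcaaaccatggta
Ctsz: acagtgcttgtggacatgaggaccagagtg
Cd68: gcctcatctcttcaccatgccactgactca

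The members split into 5 genes that differed more than 2-fold between at least 1 pair of arrays (Ctsc, Ctsh, Ctsk, Ctsl and Cd68) and 5 that did not (Ctsb, Ctsd, Ctss, Ctsz and Lamp1). Ctsc and Ctsh were lowest in CpG, Ctsk and Ctsl were highest in CpG, and Cd68 was lowest in triple. Triple was compared with the reference first. Of the 10 members, 0 were more than 2-fold higher and 1, Cd68, was more than 2-fold lower in triple than in IFN-g+IL-10RB, against 6.65% higher and 9.33% lower among 18788 genes well above background on either array. In CpG against IFN-g+IL-10RB, 2 members were higher and 2 were lower, against 5.12% and 5.87% of 19013 genes. In triple against CpG, 2 members were higher and 2 were lower, against 7.60% and 8.46% of 19085 genes. These 3 comparisons share arrays, so that a single array takes part in each pair of them and their values are given side by side without a correlation. The median log2 fold of the members was -0.14, 0.00 and -0.13 in the 3 comparisons, in the order above, and for the 16503 genes above background everywhere it was -0.04, 0.00 and -0.05. The median size of the log2 fold, leaving out its sign, was 0.74 for the members and 0.32 for all genes in triple against CpG. It was 0.35 against 0.32 in triple against IFN-g+IL-10RB, and 0.33 against 0.26 in CpG against IFN-g+IL-10RB.

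**Figure D1:**
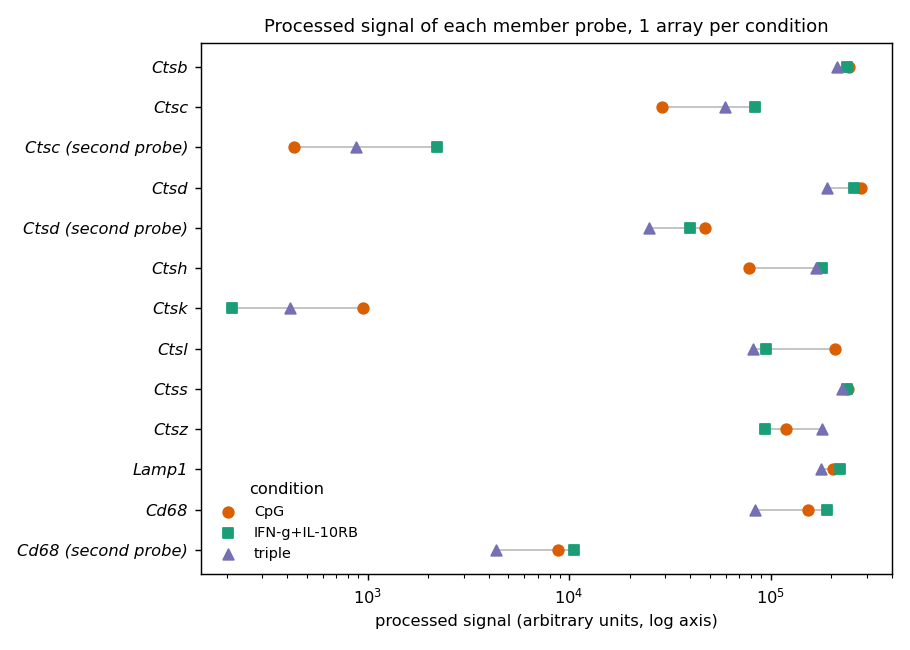
Processed signal (arbitrary units, log axis) of the 13 member probes, with 1 row per probe and 1 point per array (circle CpG, square IFN-g+IL-10RB, triangle triple); the grey line joins the lowest and the highest array. The 3 points of Ctsb and of Ctss nearly coincide, whereas Ctsk runs from 213 in IFN-g+IL-10RB to 947 in CpG, and signals of different rows are not comparable.

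Among the cysteine cathepsins, Ctsc and Ctsh shared their order of arrays. Ctsc encodes the dipeptidyl peptidase that activates serine proteases of immune granules, and its main probe (chr7:95458436-95458495, plus strand) had a signal of 28914 in CpG, 83903.5 in IFN-g+IL-10RB and 59279 in triple. CpG was the low array, at 2.95-fold below IFN-g+IL-10RB (log2 -1.56). Triple lay between them, 2.13-fold above CpG (log2 1.09) and 1.38-fold below IFN-g+IL-10RB (log2 -0.47). A second Ctsc probe, designed on another transcript (chr7:95435428-95435487), had 432.5 in CpG, 2205 in IFN-g+IL-10RB and 875 in triple. It kept this order of arrays, with CpG 5.18-fold below IFN-g+IL-10RB (log2 -2.37), and had a log2 fold of -1.30 for triple against IFN-g+IL-10RB, so that this comparison was past 2-fold with the second probe and not with the main one.

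Ctsh encodes an aminopeptidase with some endopeptidase activity. Its signal (chr9:89970828-89970887, plus strand) was 77748 in CpG, 179562 in IFN-g+IL-10RB and 168005 in triple. CpG was again the low array, 2.34-fold below IFN-g+IL-10RB (log2 -1.23) and 2.25-fold below triple (log2 1.17 for triple over CpG). IFN-g+IL-10RB and triple differed by less than the technical error (log2 -0.06). The Ctsh spot of the IFN-g+IL-10RB array carried an outlier mark for its local background, which was 51.5 units beside a signal of 179562.

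Ctsk and Ctsl ran the other way, with CpG as the high array. Ctsk encodes the collagen-degrading protease for which osteoclasts are known, and its signal (chr3:95313165-95313224, plus strand) was 947 in CpG, 213 in IFN-g+IL-10RB and 411 in triple. CpG was 4.39-fold above IFN-g+IL-10RB (log2 2.13), the widest fold of any member, and triple was 2.21-fold below CpG (log2 -1.15). Triple was also 1.98-fold above IFN-g+IL-10RB (log2 0.99), just inside the 2-fold line. With background-corrected raw signals (normexp) in place of processed ones, the log2 fold of triple over CpG was -0.98 and no longer past the 2-fold line. This correction adds an offset of 50 to each signal, which by construction narrows the folds of dim probes.

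Ctsl encodes a broad endopeptidase of the lysosome. Its signal (chr13:64465287-64465346, minus strand) was 207806 in CpG, 94467 in IFN-g+IL-10RB and 81987 in triple. CpG was 2.17-fold above IFN-g+IL-10RB (log2 1.12), and triple was 2.44-fold below CpG (log2 -1.28). The 2 arrays with IFN-g differed by less than 0.26 on the log2 scale (-0.17 for triple over IFN-g+IL-10RB). This was still more than 2 SD of the probes with signals of 10000 or more (SD 0.072).

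Ctsz, a carboxypeptidase also called cathepsin X, was the single member whose signal was highest in triple. It had 119093 in CpG, 94089 in IFN-g+IL-10RB and 179188 in triple (chr2:174253228-174253287, minus strand). Triple was 1.95-fold above IFN-g+IL-10RB (log2 0.97) and 1.57-fold above CpG (log2 0.65). CpG was above IFN-g+IL-10RB by a log2 fold of 0.32, which became 0.258 when spike-in probes set the scale. This was just under 0.26 but more than 2 SD of the probes with signals of 10000 or more (SD 0.072). Both triple folds stayed inside the 2-fold line here, and the first passed it, as did that of Ctsk, when the arrays were scaled on all probes (log2 1.08 for Ctsz).

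Ctsb and Ctss differed least between the arrays. Ctsb, an abundant endopeptidase and carboxypeptidase, had 243571 in CpG, 238069.7 in IFN-g+IL-10RB and 213764 in triple (chr14:63761906-63761965, plus strand), and its log2 folds lay between -0.13 and 0.01. Ctss, which trims the invariant chain and keeps activity at neutral pH, had 243277 in CpG, 240072 in IFN-g+IL-10RB and 224742 in triple (chr3:95360245-95360304, plus strand), with log2 folds between -0.06 and 0.00. For both genes all 3 differences were under 2 technical SD. Ctss and Ctsk are neighbours on chromosome 3, with 1 gene between them in RefSeq and their probes 47021 bases apart on mm9. The signal of Ctsk spanned 4.39-fold over the arrays and that of Ctss 1.04-fold.

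Ctsd, the aspartic protease among the members, was lowest in triple. Its main probe (chr7:149561962-149562021, minus strand) had 280816 in CpG, 259913 in IFN-g+IL-10RB and 190864 in triple. Triple was 1.33-fold below IFN-g+IL-10RB (log2 -0.41) and 1.41-fold below CpG (log2 -0.50). With this probe CpG and IFN-g+IL-10RB differed by a log2 fold of 0.09, under 2 SD, also of the probes with signals of 10000 or more. The second probe of Ctsd (chr7:149566847-149568505, a span of 1659 bases, longer than the 60 bases of the probe) had 47365 in CpG, 39951 in IFN-g+IL-10RB and 24775 in triple. It gave the same order with log2 folds of -0.65 against IFN-g+IL-10RB and -0.88 against CpG for triple, and neither probe passed 2-fold. With the second probe the log2 fold of CpG over IFN-g+IL-10RB was 0.22. This was under 0.26 but more than 2 SD of the probes with signals of 10000 or more (SD 0.072). The main Ctsd spot of the triple array carried the outlier mark for local background described for Ctsh, and without it Ctsd is read from the second probe.

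The membrane proteins were both lowest in triple and differed in size of the difference. Lamp1 (chr8:13175277-13175336, plus strand) had 203225 in CpG, 221509 in IFN-g+IL-10RB and 177838 in triple. Triple was 1.22-fold below IFN-g+IL-10RB (log2 -0.28), slightly more than 2 technical SD. With the arrays scaled on all probes this log2 fold was -0.17. Its size was then under 0.26 but more than 2 SD of the probes with signals of 10000 or more. The other log2 folds of Lamp1 were -0.15 for CpG over IFN-g+IL-10RB and -0.13 for triple over CpG, both under 0.26. The first was more than 2 SD of the probes with signals of 10000 or more (SD 0.072). Cd68 (chr11:69477775-69477834, minus strand) had 153505 in CpG, 190933 in IFN-g+IL-10RB and 83203 in triple. Triple was 2.24-fold below IFN-g+IL-10RB (log2 -1.16) and 1.77-fold below CpG (log2 -0.83), and CpG was 1.26-fold below IFN-g+IL-10RB. A second Cd68 probe (chr11:69478979-69479038) had 8840.0 in CpG, 10522 in IFN-g+IL-10RB and 4334 in triple, in the same order, with a log2 fold of -1.24 for triple over IFN-g+IL-10RB and -0.97 for triple over CpG. The lower value of Cd68 in triple was therefore read by both probes. The main probes of Cd68, Ctsd and Ctsz lay in the first 48 rows of the array, where the median log2 fold of triple over IFN-g+IL-10RB was -0.04, beside -0.03 in the remaining rows.

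**Figure D2:**
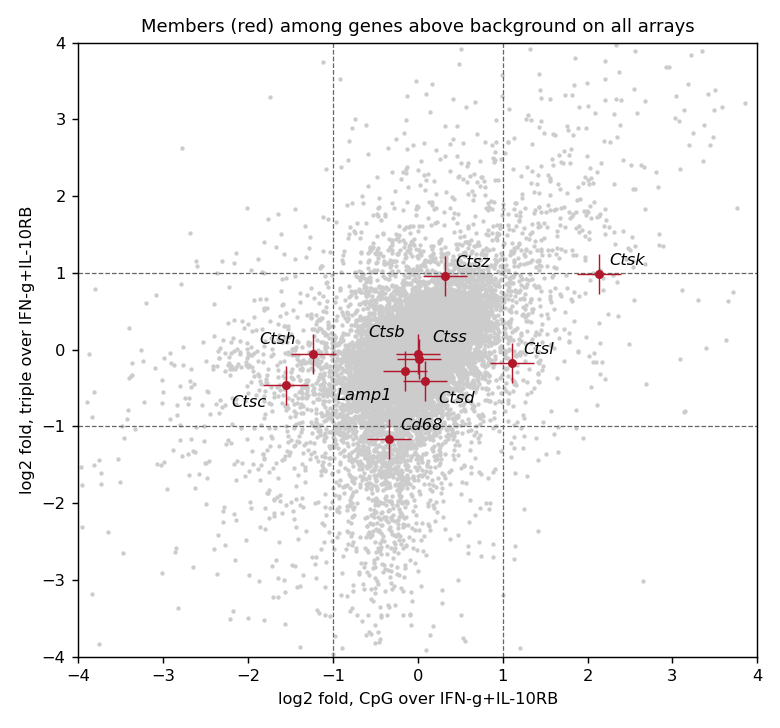
Log2 fold of CpG (horizontal axis) and of triple (vertical axis) over IFN-g+IL-10RB for the 10 members (red, bars of 2 technical SD, 0.26) and for 16503 genes well above background on all arrays (grey, 114 of them outside the axes); dashed lines mark 2-fold. Both axes share the IFN-g+IL-10RB array, Ctsc and Ctsh lie at the left, Ctsk and Ctsl at the right, Cd68 is below the lower line, and Ctsb, Ctss, Lamp1 and Ctsd lie near the centre.

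Read from the side of triple, 6 members were lower in triple than in both other arrays (Ctsb, Ctsd, Ctsl, Ctss, Lamp1 and Cd68), 3 were between them (Ctsc, Ctsh and Ctsk) and 1 was above both (Ctsz). Among all 16503 genes the shares were 40.2% below both, 27.7% between and 32.1% above both. For Ctsb and Ctss both log2 differences from triple were under 0.26, as were those of Ctsl from IFN-g+IL-10RB and of Lamp1 from CpG. That of Ctsl exceeded 2 SD of the probes with signals of 10000 or more.

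The members were set beside 158 further genes, on lists of lysosomal proteins and of proteins that inhibit cathepsins, sort cargo to lysosomes or regulate lysosome genes, 132 of them above background on every array. Past 2-fold in triple against IFN-g+IL-10RB, 8 were higher and 20 lower of 143 above background on either array, beside the 6.65% and 9.33% of all genes. In CpG against IFN-g+IL-10RB 5 were higher and 16 lower of 142 (5.12% and 5.87% of all genes), and in triple against CpG 14 were higher and 17 lower of 143 (7.60% and 8.46%). The median log2 folds over the 132 genes were -0.17, -0.06 and -0.03 in these comparisons.

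Of 15 other cathepsin genes, 3 were above background on every array (Ctsa, Ctsf and Ctso). Ctsf, a cysteine cathepsin, had 243 in CpG, 233 in IFN-g+IL-10RB and 85.2 in triple, and was 2.67-fold lower in triple than in IFN-g+IL-10RB and 2.73-fold lower than in CpG, whereas the other two stayed inside 2-fold. Ctse, an aspartic cathepsin named after its values were seen, had 19.8 in CpG, 219 in IFN-g+IL-10RB and 31.4 in triple, where the CpG signal was not well above background, so that CpG was at least 9.37-fold below IFN-g+IL-10RB. Ctsw, also named after its values were seen, was near background at 27.1 in CpG, 34.1 in IFN-g+IL-10RB and 54.1 in triple.

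Of 16 genes listed as inhibitors of cathepsins, 12 were above background on either array of triple against CpG. In triple 6 were more than 2-fold higher and 1 was lower than in CpG, beside 7.60% and 8.46% of all genes. Of these 6, Stfa2l1 (5.4 in CpG, 123.8 in triple) was not well above background in CpG and was counted through triple. The same held for Serpina3f (6.3 in CpG, 28718 in triple), named after its values were seen. The median log2 fold was 1.05 over the 7 above background on all arrays. In CpG against IFN-g+IL-10RB 0 were higher and 5 lower of 11 (median -1.81), beside 5.12% and 5.87% of all genes. In triple against IFN-g+IL-10RB 3 were higher and 2 lower of 13 (median 0.42), beside 6.65% and 9.33%. Cst7, cystatin F, which inhibits cathepsin C among others, had 841 in CpG, 2903 in IFN-g+IL-10RB and 7462 in triple. Its low array was CpG, as for Ctsc, but triple was 2.64-fold above IFN-g+IL-10RB where Ctsc was below it. Serpina3g, a serpin that inhibits cathepsins in the cytosol, had 58.9 in CpG, 102135 in IFN-g+IL-10RB and 219645 in triple, a fold of 3884 for triple over CpG. Probes of this serpin family may share targets, which was not tested. Serpinb9, known as an inhibitor of granzyme B, had a log2 fold of 3.65 and Serpinb1a one of 1.05 for triple over CpG, and Serpinb6a, at -1.28, was the inhibitor lower in triple than in CpG.

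Of 12 further proteases and thiol enzymes, 11 were above background on every array. In CpG 5 were more than 2-fold lower and 0 higher than in IFN-g+IL-10RB (median log2 fold -0.92 over 11 genes), beside 5.87% and 5.12% of all genes. In triple, 1 was higher and 3 were lower than in IFN-g+IL-10RB (median -0.59), beside 6.65% and 9.33% of all genes. Against CpG 3 were higher and 1 was lower in triple (median 0.18), beside 7.60% and 8.46%. Ppt1, a palmitoyl-protein thioesterase, had 2581 in CpG, 9536.5 in IFN-g+IL-10RB and 6173 in triple, with CpG low and triple between, as for Ctsc. Scpep1, a serine carboxypeptidase, had 27688.5 in CpG, 61105 in IFN-g+IL-10RB and 53302 in triple, with CpG low as for Ctsh.

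Of 34 glycosidases, sulfatases and lipid enzymes, 7 were more than 2-fold lower and 1 higher in triple than in IFN-g+IL-10RB (median log2 fold -0.49 over 33 genes). The shares of all genes were 9.33% and 6.65%. Against CpG 7 were lower and 1 higher in triple (median -0.20), beside 8.46% and 7.60% of all genes. In CpG against IFN-g+IL-10RB 2 were lower and 2 higher (median -0.26), beside 5.87% and 5.12%. Lipa, the lysosomal acid lipase, had 19155 in CpG, 24781 in IFN-g+IL-10RB and 7851 in triple, with triple low as for Cd68. Acp2, an acid phosphatase, was the gene higher in triple in both comparisons, at 6544 in CpG, 3729 in IFN-g+IL-10RB and 14716 in triple. Acp5, the tartrate-resistant phosphatase of osteoclasts, had 16007 in CpG, 7726 in IFN-g+IL-10RB and 7262 in triple, with CpG high as for Ctsl.

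Among 31 other membrane proteins 3 were higher and 4 lower in triple than in IFN-g+IL-10RB (median log2 fold -0.26), beside 6.65% and 9.33% of all genes. Against CpG 2 were higher and 5 lower in triple (median 0.01), beside 7.60% and 8.46%. In CpG against IFN-g+IL-10RB 2 were higher and 3 lower (median 0.02), beside 5.12% and 5.87%. Slc15a3, a transporter of peptides and histidine, had 25359.8 in CpG, 17292 in IFN-g+IL-10RB and 78524 in triple. Laptm5 had 14201 in CpG, 20089 in IFN-g+IL-10RB and 6321 in triple and was low in triple, as was Cd68. Of 19 measured parts of the proton pump that acidifies lysosomes, 1 was past 2-fold in any comparison, Atp6v0d2, with 1801.5 in CpG, 662 in IFN-g+IL-10RB and 239.5 in triple. Among all genes the share past 2-fold was 5.12 to 9.33% for each direction and comparison. Of 19 genes for sorting to lysosomes, 0 were higher and 1, Gnptg, was lower in triple than in IFN-g+IL-10RB (2.35-fold), beside 6.65% and 9.33% of all genes. Against CpG 1 was higher (M6pr) and 1 lower (Ap1b1) in triple, beside 7.60% and 8.46%. In CpG against IFN-g+IL-10RB 0 were higher and 0 lower, beside 5.12% and 5.87%. Of 12 regulators of lysosome genes, 11 were above background on either array and 0 were past 2-fold in any comparison. The share of all genes was 5.12 to 9.33% for each direction and comparison, as given above. Tfeb, a factor that drives many lysosome genes, had a log2 fold of -0.81 for triple over IFN-g+IL-10RB.

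**Figure D3:**
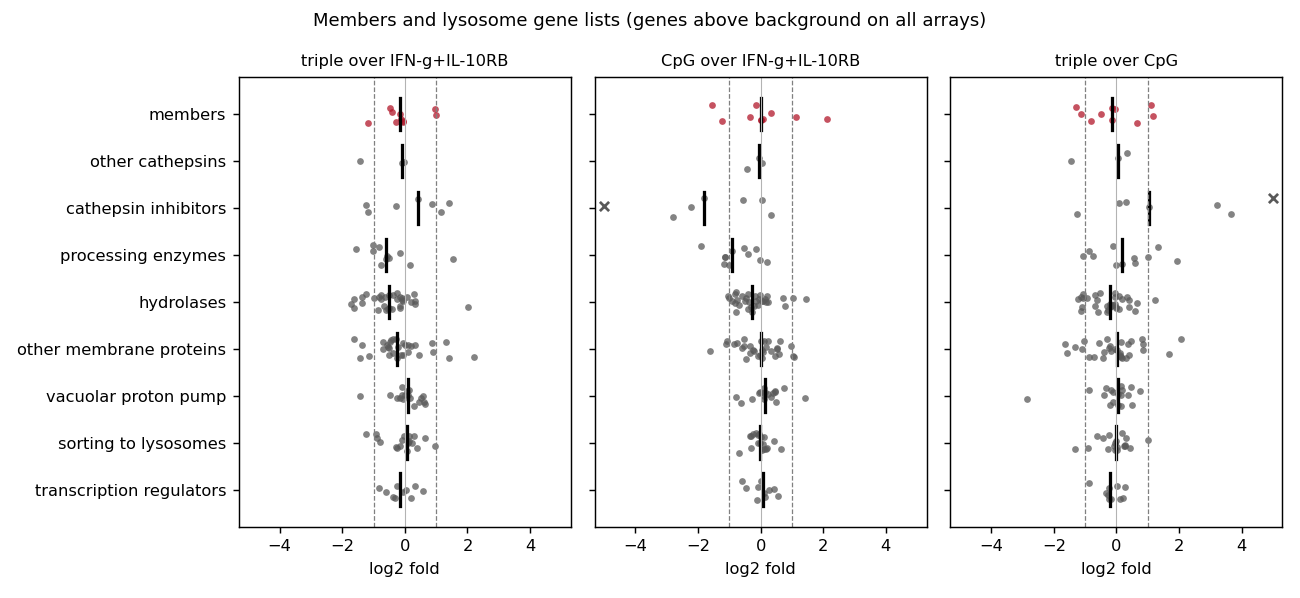
Log2 fold of each gene in the 3 comparisons, with 1 row per list, members in red and the list's median as a black bar; genes are those above background on all arrays and dashed lines mark 2-fold. A cross is a gene beyond the axis (Serpina3g at -10.78 for CpG over IFN-g+IL-10RB and 11.92 for triple over CpG), and the members lie between -1.56 and 2.13.

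The patterns of the members were also set against those of 141 genes of the members and these lists, with each gene centred on its own mean over the 3 arrays and likeness given as the distance on the log2 scale. With 3 arrays a small distance is a description of shape and nothing more. The nearest to Ctsc were Ppt1 (0.25), Scpep1 (0.29) and Ctsh (0.30), and the nearest to Ctsh were Scpep1 (0.12), Laptm4b (0.23) and Ctsc (0.30). Ctsl was nearest to Acp5 (0.14), Slc17a5 (0.15), a sialic acid transporter, and Tpcn1 (0.28), a cation channel. The nearest to Cd68 were Gnptg (0.06), Tpp1 (0.13), a tripeptidyl peptidase, and Abca2 (0.17). The distances of Ctsk were longer, with Lyz2 (0.54), Mcoln2 (0.83) and Acp5 (0.88).

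Promoter sequence was available from RefSeq (GRCm38.p6) for 8 of the 10 members, in a window from 250 bases before to 50 bases after the start of the gene. It was searched on both strands for 3 motifs, the E-box core CACGTG of the TFEB family, the interferon gamma activated site (GAS) TTCNNNGAA, and the core of the interferon-stimulated element (ISRE) GAAANNGAA. The sequences below are those of the member with the most matches (Lamp1), of the neighbours Ctss and Ctsk, which differed in their range over the arrays, and of Ctsc and Ctsl, which differed in opposite directions between CpG and IFN-g+IL-10RB. They are written 5′ to 3′ along the gene's strand, with the matches in capitals.
Lamp1: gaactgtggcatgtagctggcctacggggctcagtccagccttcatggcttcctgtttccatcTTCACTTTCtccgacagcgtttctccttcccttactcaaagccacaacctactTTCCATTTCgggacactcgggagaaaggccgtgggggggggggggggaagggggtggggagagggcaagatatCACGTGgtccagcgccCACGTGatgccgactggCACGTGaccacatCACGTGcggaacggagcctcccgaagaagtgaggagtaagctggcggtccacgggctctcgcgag
Ctss: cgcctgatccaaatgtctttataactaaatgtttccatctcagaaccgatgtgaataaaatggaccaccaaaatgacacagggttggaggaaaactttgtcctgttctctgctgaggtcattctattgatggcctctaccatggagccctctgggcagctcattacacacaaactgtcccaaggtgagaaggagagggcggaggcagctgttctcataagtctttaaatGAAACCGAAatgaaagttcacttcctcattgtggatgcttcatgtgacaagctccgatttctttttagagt
Ctsk: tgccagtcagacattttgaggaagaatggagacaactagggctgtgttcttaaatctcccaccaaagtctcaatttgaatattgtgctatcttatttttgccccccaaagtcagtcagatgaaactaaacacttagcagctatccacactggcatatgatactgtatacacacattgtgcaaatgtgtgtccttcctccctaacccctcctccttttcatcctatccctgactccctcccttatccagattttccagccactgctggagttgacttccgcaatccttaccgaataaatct
Ctsc: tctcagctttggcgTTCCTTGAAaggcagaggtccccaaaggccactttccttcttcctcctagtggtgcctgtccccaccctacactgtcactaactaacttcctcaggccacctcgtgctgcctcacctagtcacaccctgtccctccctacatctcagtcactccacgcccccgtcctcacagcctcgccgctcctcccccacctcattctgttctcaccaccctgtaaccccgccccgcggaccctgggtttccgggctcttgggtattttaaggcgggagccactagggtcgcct
Ctsl: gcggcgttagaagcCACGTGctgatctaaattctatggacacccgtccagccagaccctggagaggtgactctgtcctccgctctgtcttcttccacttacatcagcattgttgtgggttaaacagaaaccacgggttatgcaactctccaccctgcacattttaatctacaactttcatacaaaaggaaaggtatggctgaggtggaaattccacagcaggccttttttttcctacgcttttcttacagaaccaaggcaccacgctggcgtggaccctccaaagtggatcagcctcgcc

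These windows lie at chr8:13158911-13159210, plus strand, for Lamp1, at chr3:95526536-95526835, plus strand, for Ctss, at chr3:95498960-95499259, plus strand, for Ctsk, at chr7:88277835-88278134, plus strand, for Ctsc, and at chr13:64370471-64370770, minus strand, for Ctsl. The E-box core was present in 3 of the 8 windows, those of Lamp1, Ctsd and Ctsl, and in 7.15% of 32851 promoters. Lamp1 held 4 cores, starting 61, 45, 28 and 15 bases before the start of the gene, and 4 or more were present in 0.024% of promoters, 8 in number. Ctsd held 2, and Ctsl held 1, which began 236 bases before the start. Of these 3 genes, Ctsl differed 2.44-fold over the arrays, Ctsd 1.41-fold and Lamp1 1.22-fold. A link between the motif and the folds was not tested.

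The GAS was present in the window of Ctsc, 236 bases before the start, and in 8.30% of promoters. The ISRE core was present in the windows of Ctss (21 bases before the start) and Lamp1 (187 and 134 bases) and in 8.56% of promoters. None of the 3 motifs was found in the windows of Ctsk, Ctsz and Cd68. A match is a stretch of letters and not a measured binding site, and its absence from the window concerns these letters only.

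The label of the cells was checked against marker genes. All 9 measured macrophage markers were above background on every array, with a summed signal from 581545 in IFN-g+IL-10RB to 739521 in CpG. Some of them moved more than the sum. In CpG against IFN-g+IL-10RB 3 were more than 2-fold higher and 2 lower, beside 5.12% and 5.87% of all genes. In triple against IFN-g+IL-10RB 2 were higher and 0 lower (6.65% and 9.33%). Against CpG 1 was higher and 1 lower in triple (7.60% and 8.46%). Cd14 had 55389 in CpG, 5534 in IFN-g+IL-10RB and 90961 in triple. Mertk had 812 in CpG, 1983 in IFN-g+IL-10RB and 3164.5 in triple. Of the T cell markers 3 of 7 were above background on all arrays (sums of 2628 to 3005) and of the NK cell markers 1 of 4 (218 to 257), whereas Cd3d, Cd3g, Cd8a, Cd2, Ncr1 and Klrb1c were above background on no array. Of the neutrophil markers 2 of 6 were above background on all arrays (sums of 3495 in CpG, 9363 in IFN-g+IL-10RB and 4354 in triple), with Mpo, Ltf and Ngp on none. Of the dendritic cell markers 2 of 5 (32828 to 36432) and of the fibroblast markers 2 of 6 (349 to 971) were above background on all arrays, with Flt3 and Pdgfra on none. Some markers moved with the conditions in which members differed. Ly6g, the neutrophil marker behind the high sum, had 555 in CpG, 7699 in IFN-g+IL-10RB and 2658 in triple, with CpG low and triple between as for Ctsc. Elane, from the same list, had 2839 in CpG, 1615 in IFN-g+IL-10RB and 1539 in triple, highest in CpG, and Camp had 72.9 in CpG, 17.5 in IFN-g+IL-10RB and 139 in triple, where the IFN-g+IL-10RB signal was not well above background. Cd79b, a part of the B cell receptor, had 801 in CpG, 182 in IFN-g+IL-10RB and 108 in triple, with CpG high as for Ctsk and Ctsl. Its partner Cd79a had 66.6 in CpG, 75.5 in IFN-g+IL-10RB and 43.6 in triple, and the B cell genes Ms4a1 and Pax5 were above background on no array. The dendritic cell marker Ccr7 had 319 in CpG, 225 in IFN-g+IL-10RB and 2892 in triple. The fibroblast marker Dcn had 80.6 in CpG, 16.4 in IFN-g+IL-10RB and 342 in triple, so that both were high in triple. Zbtb46, Xcr1, Col3a1 and Lum, each not well above background on some array, were also highest in triple. Siglech, most of the dendritic cell sum, had 36076 in CpG, 35974 in IFN-g+IL-10RB and 29736 in triple. Col1a1 had 177 in CpG, 94.5 in IFN-g+IL-10RB and 98.3 in triple. Col1a2 had 317.5 in CpG, 215.5 in IFN-g+IL-10RB and 318.5 in triple. The part of other cells in the values of the members was not tested.

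**Figure D4:**
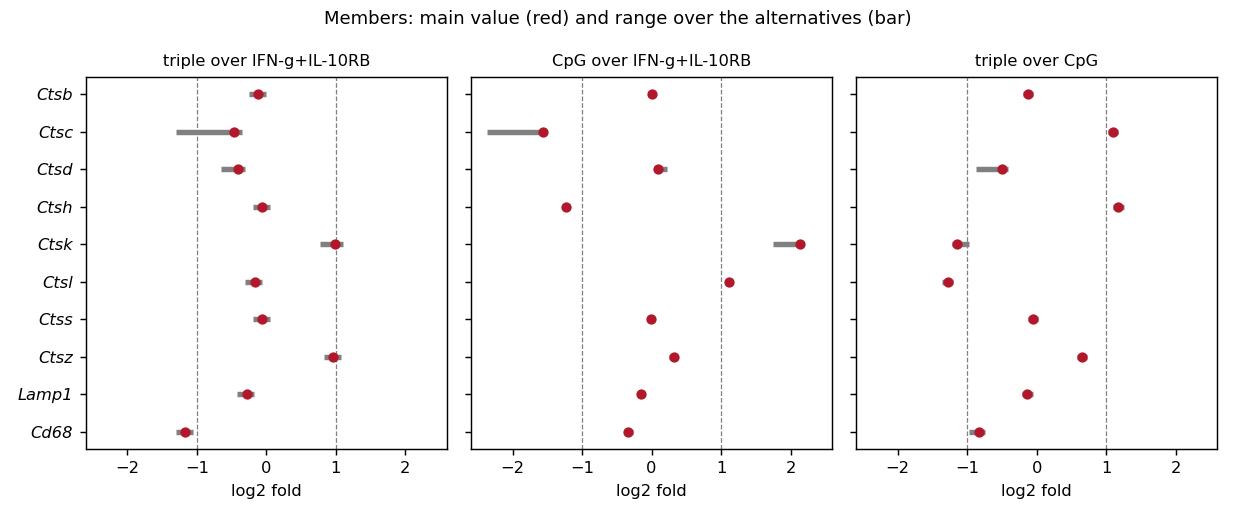
Log2 fold of the 10 members in the 3 comparisons, with the reported value in red and the range over 13 other ways of processing the signals (12 for Ctsh) as a grey bar; dashed lines mark 2-fold. The bars of Ctsk and Ctsz cross the upper line and that of Ctsc the lower line for triple over IFN-g+IL-10RB, and the bar of Ctsk reaches inside the line for triple over CpG.

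Of the 9 member folds past 2-fold, 8 were past it in the same direction with every other way of processing in the plot of the ranges, and all 9 kept their sign. The exception was Ctsk in triple against CpG, given above. Of the 21 folds inside 2-fold, 3 passed it under some setting, those of Ctsk, Ctsz and Ctsc in triple against IFN-g+IL-10RB.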

How the data were processed

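Total RNA of 3 BMDM samples, 1 per condition, was hybridised by the authors to 1-colour (Cy3) Agilent mouse 8x60K arrays on 1 slide with 1 scan time. The authors deposited scanner files made with Feature Extraction (Agilent, version 10.10.1.1). In the deposited files the processed signal is a linear intensity from which the software has subtracted the background. In a further table deposited by the authors, log2 values were the logarithm of this signal less a constant of the array, equal to signals of 367.6 (CpG), 372.6 (IFN-g+IL-10RB) and 338.0 (triple), within 0.01 for 99.8% or more of the probes. It served as an alternative.

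Controls were left out, as were spots that the software marked as outliers for the feature itself (0.212 to 0.275% of spots). Spots with a mark for their local background were kept, a choice made after it was seen that this mark removed Ctsh. Signals were put on the log2 scale, arrays were aligned at the 75th percentile of the 22378 probes that read well above background in every condition (on average 45.1% of spots were well above background), and a gene was read from its probe with the highest mean. A difference was called past 2-fold where the brighter array was well above background. A dim signal was raised to the lowest signal well above background on its array (23.8 to 26.7), which gives the folds written as at least a value. Technical error came from 256 to 270 probes per array with replicate spots, and the number of arrays limits the precision. The mm9 positions come from the array files, and promoters, names and neighbours from the RefSeq tables (GRCm38.p6) (10 of 13 member probes had their accession there, all under the same symbol).

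The members, lists, motifs and alternatives were chosen with earlier results of these data known. All members were named, with, of each list, genes among the 3 largest folds per comparison or past 2-fold in triple against both other arrays, and the 3 nearest lysosome genes of members past 2-fold. Other genes named are the cell type markers and those said to be named after their values were seen. The count and sum of 1 list of markers are not reported here. Python 3.11.15 with pandas 2.3.3 was used, with R 4.3.3 and limma 3.58.1 for the normexp correction (offset 50). The fold and call steps were tested on simulated data. Alternatives covered scaling, background correction, outlier marks, choice of probe, filter and threshold.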

Additional observations from a re-analysis of the deposited data

How the results depend on the processing

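The 1 member past 2-fold in triple against IFN-g+IL-10RB became 3 members when arrays were scaled by the 75th percentile over all probes, by the median, or taken from the authors' table, and 3 with a threshold of 1.5-fold (Cd68, Ctsk and Ctsz in each case). It became 2 with quantile normalization (Ctsk added), 2 with the dimmest probe of each gene (Ctsc added), and 0 with a threshold of 3-fold. With that threshold the 4 members past it became 1 (Ctsk) in CpG against IFN-g+IL-10RB and 0 in triple against CpG. With spike-in probes as the scale the median log2 fold of the members in triple against IFN-g+IL-10RB was -0.28 in place of -0.14, while the median of all genes moved from -0.04 to -0.18, and with the 75th percentile over all probes the latter was 0.07. No sign of a fold past 2-fold was reversed. Leaving out spots with a background mark and taking the dimmest probe were alternatives chosen after seeing the data; the first leaves no value for Ctsh. Counts of all genes past 2-fold also depended on the settings. For triple against IFN-g+IL-10RB 1249 were higher and 1752 lower, and without a filter on dim probes 2624 and 3184, with normexp 835 and 1153, 1478 and 1524 where all probes set the percentile, 1476 and 1542 by the authors' values, 1057 and 2103 by spike-in scaling, with a 1.5-fold threshold 2543 and 3262, and with a 3-fold threshold 653 and 858. For CpG against IFN-g+IL-10RB the main counts were 973 and 1116, without a filter 2473 and 2563, and with normexp 586 and 737. For triple against CpG they were 1450 and 1614, without a filter 2869 and 3129, and with normexp 987 and 971. The cause was not tested beyond what the thresholds and the normexp offset fix by construction. The offset of 50 is added to each signal, which narrows the folds of dim probes. Ctsk had the lowest signals of the members, and its folds moved most with this background correction. No paired analysis was possible because a single array stood for each condition, and for the same reason no array could be left out.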
